A study of Mus musculus with 12 samples.

Results

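Basophils, mast cells and eosinophils are granule-bearing cells of type 2 immunity and were followed here, in RNA of sorted mouse red cell precursors, through 7 marker genes: Mcpt8, Prss34, Prg2, Epx, Cpa3, Ms4a2 and Fcer1a. The genes were given by name, and every probe whose annotated gene symbol equals one of them was taken, which gave 10 probes of 45281 on the array and 7 genes of 9388 tested. The cells were bone marrow erythroid cells, positive for Ter119, a surface protein of the erythroid lineage, and high for CD71, the transferrin receptor. One group came from mice with the cyclin E (T74A T393A) knock-in, whose cyclin E is not ubiquitinated normally by way of Fbw7. The other came from wild type littermates, and the labels give strain background 129 for both. Age, zygosity and the number of animals behind each array were not given in the sources used here.

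RNA was hybridised to 12 Illumina bead arrays, numbered 1 to 12 in the sample titles, 6 of each genotype. Arrays 1 and 2, 3 and 4, and so on to 11 and 12 differed in pairs over all genes tested by an SD of 0.093 to 0.139 on the log2 scale. All other pairs of arrays of 1 genotype differed by 0.30 to 0.447. The arrays of each such adjacent pair were therefore averaged and counted as 1 sample, and 3 knock-in samples (arrays 3 and 4, 5 and 6, 11 and 12) were compared with 3 wild type samples (arrays 1 and 2, 7 and 8, 9 and 10). Nothing in the labels ties the samples to separate animals, and p-values thus reflect the spread among these samples alone, which may be technical. The number of arrays limits the precision. As checks of the sorted cell type, Tfrc, which encodes CD71, was at 11.87 ± 0.86 in wild type samples and 12.28 ± 0.37 in the knock-in (log2 normalised intensity, mean ± SD, n = 3 each), and Klf1, an erythroid transcription factor, at 12.03 ± 0.64 and 12.53 ± 0.25.

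Basophils and mast cells bind IgE through a receptor made of an alpha chain that holds the antibody (Fcer1a), a beta chain that amplifies the signal (Ms4a2) and a gamma chain shared with other Fc receptors (Fcer1g). When the receptor is cross-linked, they release granules filled with proteases. In mice Mcpt8 and Prss34 are granule serine proteases of basophils, and Cpa3 is a carboxypeptidase of mast cell and basophil granules. Eosinophil granules hold cationic proteins, among them major basic protein, encoded by Prg2, and eosinophil peroxidase, encoded by Epx. Prg2 and Epx are transcribed mainly while eosinophils mature in the marrow.

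The stretches of DNA before the transcription start are shown for the 3 genes with the lowest differences between genotypes and for Ms4a2, the gene whose difference lay nearest to 0. They are RefSeq sequences of build GRCm38.p6, each of 250 bases that end just before the start, written 5′ to 3′ on the gene's strand. Capitals mark GATAA, the core of sites bound by GATA factors, on either strand (TTATC on the other). Mcpt8 lies on the minus strand at chr14:56085198-56085447, Prss34 on the plus strand at chr17:25298144-25298393, Epx on the minus strand at chr11:87875537-87875786 and Ms4a2 on the minus strand at chr19:11623720-11623969.
Mcpt8: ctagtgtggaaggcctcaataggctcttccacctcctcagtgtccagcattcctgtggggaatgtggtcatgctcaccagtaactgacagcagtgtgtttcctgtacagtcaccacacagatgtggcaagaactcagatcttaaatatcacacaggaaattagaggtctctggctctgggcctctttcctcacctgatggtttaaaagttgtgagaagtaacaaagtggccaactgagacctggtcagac
Prss34: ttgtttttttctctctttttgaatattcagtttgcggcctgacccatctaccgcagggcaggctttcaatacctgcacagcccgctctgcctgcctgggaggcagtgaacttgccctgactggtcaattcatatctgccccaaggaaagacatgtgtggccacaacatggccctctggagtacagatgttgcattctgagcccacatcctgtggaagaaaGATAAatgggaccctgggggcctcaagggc
Epx: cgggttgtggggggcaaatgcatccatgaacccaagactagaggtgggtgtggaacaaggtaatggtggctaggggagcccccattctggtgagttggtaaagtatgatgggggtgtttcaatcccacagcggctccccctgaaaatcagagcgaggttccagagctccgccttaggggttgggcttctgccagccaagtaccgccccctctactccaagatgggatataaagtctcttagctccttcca
Ms4a2: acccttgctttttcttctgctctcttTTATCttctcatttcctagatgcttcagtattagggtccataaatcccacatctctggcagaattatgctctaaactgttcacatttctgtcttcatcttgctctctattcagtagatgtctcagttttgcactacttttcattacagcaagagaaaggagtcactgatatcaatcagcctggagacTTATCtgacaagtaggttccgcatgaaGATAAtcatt

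GATAA was found in the promoter windows of 4 of the 6 members that the RefSeq table holds, where a window runs from 250 bases before to 50 bases after the start. They were Ms4a2, with 3 matches, and Prss34, Cpa3 and Fcer1a, with 1 match each. In Prss34 the match began 30 bases and in Cpa3 45 bases before the start. The same letters stood in 25.4% of all 32851 windows. A second motif, TTGCNNAA, a pattern of C/EBP factors, was found on either strand in 1 of the 6, Fcer1a, and in 10.8% of all windows. The motifs do not overlap in these windows. A match is a stretch of letters and no evidence of binding.

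Both basophil proteases were lower on average in knock-in samples, and neither passed the test over all genes. Mcpt8 was at 8.42, 8.88 and 8.56 in the wild type samples (arrays 1 and 2, 7 and 8, 9 and 10) and at 7.77, 8.23 and 7.78 in those of the knock-in (arrays 3 and 4, 5 and 6, 11 and 12). After normalisation all 3 knock-in samples lay below all 3 wild type samples. Deposited intensities, which are not scaled between arrays, did overlap. Knock-in arrays 5 and 6 read 381.6 and 303.6 units, and wild type arrays 9 and 10 read 177.9 and 205.8. The difference was -0.69 ± 0.18 (log2, SE), or 1.62-fold lower in knock-in samples (95% interval 1.20 to 2.18, limma adjusted p = 0.286, unadjusted p = 0.00717). Prss34 was at 10.45, 11.48 and 10.72 in wild type samples and at 9.87, 10.71 and 9.96 in the knock-in. The groups overlapped, because the knock-in sample of arrays 5 and 6 lay above the wild type sample of arrays 1 and 2. The difference was -0.70 ± 0.33, or 1.63-fold lower (0.94 to 2.82, limma adjusted p = 0.65). With 1 sample left out it ran from -0.97 without knock-in arrays 5 and 6 to -0.41 without wild type arrays 7 and 8, in which Prss34 was highest.

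**Figure D1:**
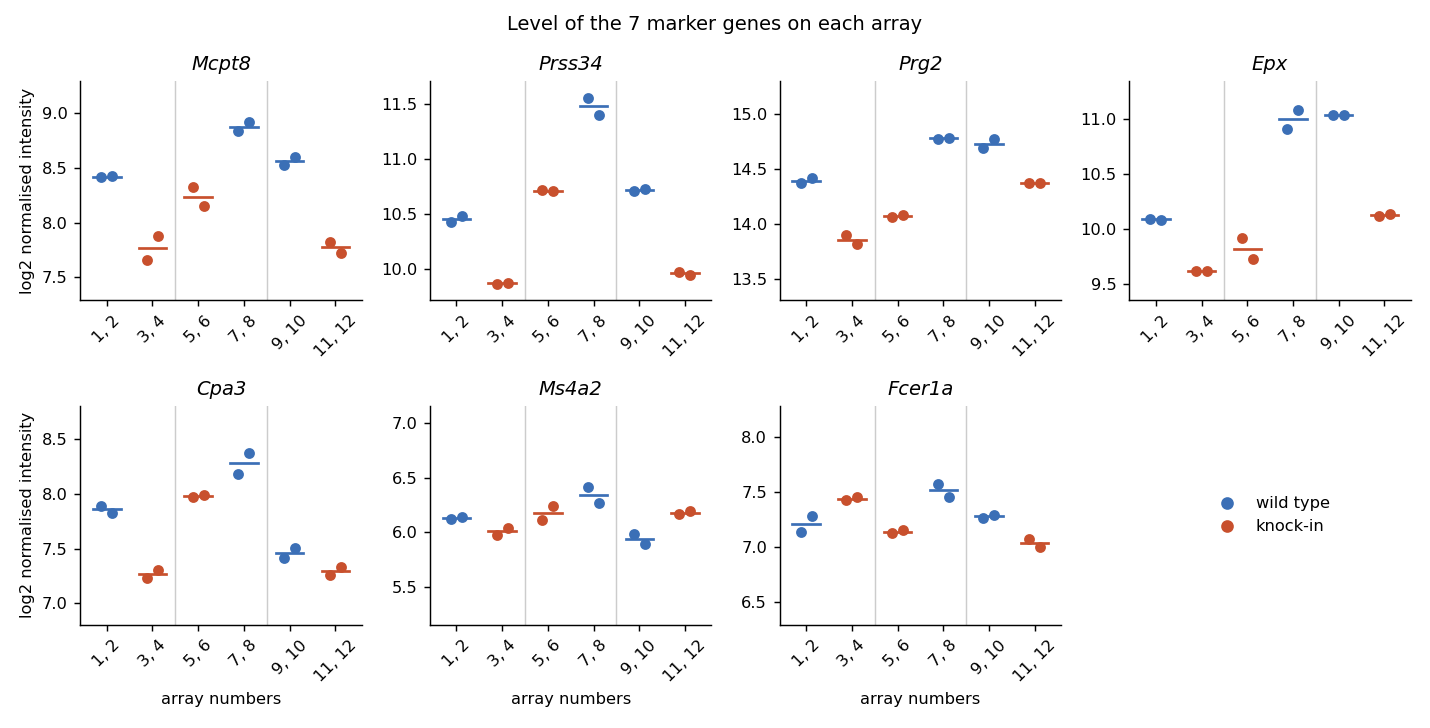
Level of each of the 7 marker genes (log2 normalised intensity) on the 12 arrays, with the array numbers of each sample on the horizontal axis; points are arrays, short lines are sample means, grey lines separate sets of 4 adjacent arrays, and each vertical axis spans the same range of log2 values. Mcpt8, Prss34, Prg2, Epx and Cpa3 are lower in the knock-in sample than in the wild type sample of each set of 4, whereas Ms4a2 and Fcer1a are not.

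Both eosinophil granule genes were also lower in knock-in samples and did not pass. Prg2 was at 14.39, 14.78 and 14.73 in wild type samples and at 13.86, 14.07 and 14.37 in the knock-in. The genotypes did not overlap after normalisation, although the highest knock-in sample nearly reached the lowest wild type sample. Deposited intensities, which are not scaled between arrays, did overlap. Knock-in arrays 11 and 12 read 22399.7 and 22137.5 units, and wild type arrays 1 and 2 read 18842.5 and 19126.3. The difference was -0.54 ± 0.17, or 1.45-fold lower (1.09 to 1.93, limma adjusted p = 0.377, unadjusted p = 0.0181). Epx was at 10.09, 11.00 and 11.04 in wild type samples and at 9.62, 9.82 and 10.13 in the knock-in. The knock-in sample of arrays 11 and 12 lay above the wild type sample of arrays 1 and 2, so that the groups overlapped. The difference was -0.85 ± 0.28, or 1.81-fold lower (1.13 to 2.89, limma adjusted p = 0.401, unadjusted p = 0.0213), and was the lowest of the 7. In bulk RNA, fewer cells of a type and less RNA per cell cannot be told apart, here and for every gene that follows.

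Cpa3 and the 2 IgE receptor chains differed less, and their groups overlapped. Cpa3 was at 7.86, 8.28 and 7.46 in wild type samples and at 7.27, 7.98 and 7.30 in the knock-in. The difference was -0.35 ± 0.27 (95% interval -1.0 to 0.30, limma adjusted p = 0.875). With 1 sample left out it ran from -0.58 without knock-in arrays 5 and 6 to -0.14 without wild type arrays 7 and 8. Another Cpa3 probe differed by -0.29, and the dimmest Cpa3 probe, above background on 11 of 12 arrays, by -0.02. Fcer1a was at 7.21, 7.52 and 7.28 in wild type samples and at 7.44, 7.14 and 7.04 in the knock-in. Its highest and lowest wild type samples enclosed 1 of the 3 knock-in samples, and the difference was -0.13 ± 0.14 (-0.48 to 0.22, limma adjusted p = 0.942). A dimmer Fcer1a probe differed by -0.01. Ms4a2 was at 6.14, 6.34 and 5.94 in wild type samples and at 6.01, 6.18 and 6.18 in the knock-in, all close to the lower end of the scale. In each genotype 4 of 6 arrays read this probe above background. The difference was -0.02 ± 0.13 (-0.33 to 0.29, limma adjusted p = 0.999).

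Between the 2 arrays of a sample, the probe that stood for each member differed by at most 0.22 on the log2 scale, the value for Mcpt8. The dimmer Fcer1a probe differed more, at 6.80 and 6.50 on wild type arrays 9 and 10. The spread of the members between samples of a genotype was larger, with an SD of up to 0.54 for Epx in wild type. All 7 genes passed the filter on dim probes, and all 10 probes did.

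Of the 7 members, 0 were called at a limma adjusted p under 0.05. Over all 9388 genes 0.0852% were called, all of them higher, and 0% were called as lower. All 7 members were lower on average in knock-in samples, as were 58.4% of all genes. At an unadjusted limma p under 0.05, 3 of the 7 were lower, against 3.09% of all genes. All 3 knock-in samples lay below all 3 wild type samples for 2 of the 7 and for 6.47% of all genes. A difference of -0.5 or lower was found for 4 of the 7 and for 1.37% of all genes. The median difference of the members was -0.54, against -0.03 for all genes.

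**Figure D2:**
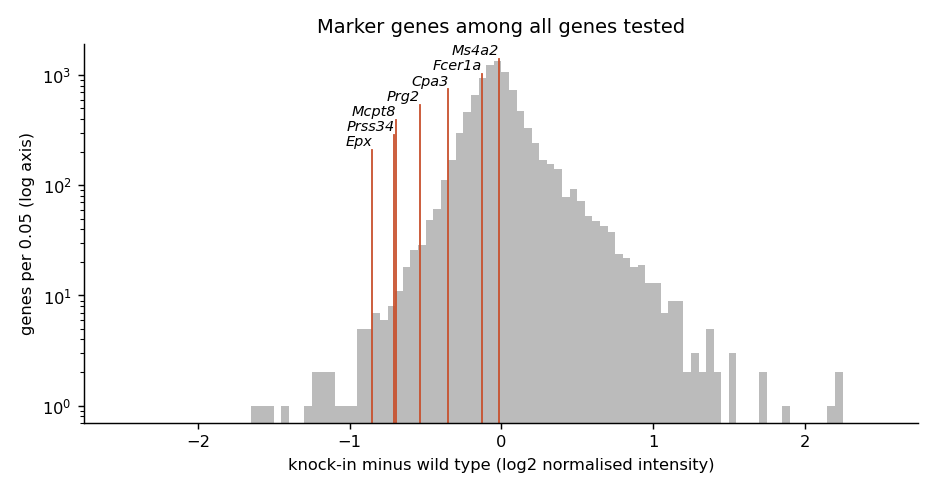
Number of genes (log axis) by their difference between genotypes, knock-in minus wild type, in log2 normalised intensity, for all 9388 genes tested (grey), with the 7 marker genes as orange lines. Epx, Prss34, Mcpt8 and Prg2 lie in the thin lower tail, and Ms4a2 and Fcer1a lie near the middle.

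Sets of 4 arrays with adjacent numbers (1 to 4, 5 to 8, 9 to 12) each held 1 sample of each genotype. The labels do not name them as litters, days or chips, and the grouping was adopted with the data known, which favours low p-values. Within these sets Mcpt8 differed by -0.65, -0.64 and -0.79. Prss34 differed by -0.58, -0.77 and -0.76, Prg2 by -0.54, -0.71 and -0.36, and Epx by -0.47, -1.18 and -0.91. The differences of Mcpt8 were thus close to each other in all 3 sets, and those of Epx were not. Cpa3 differed by -0.59, -0.30 and -0.16, while Ms4a2 (-0.13, -0.17 and 0.24) and Fcer1a (0.23, -0.38 and -0.24) changed sign between sets. A lower value in all 3 sets was found for 5 of the 7 members and for 23.5% of all genes. Of the marker lists described below, it was found for 11 of 12 B lineage genes and 10 of 12 macrophage and monocyte genes. The count was 8 of 21 for further mast cell, basophil and eosinophil genes, 2 of 11 for erythroid and 1 of 15 for neutrophil genes. It was 2 of 5 for T and NK cell genes and 3 of 8 each for megakaryocyte and for stem and progenitor genes. With the sets as a term in the fit, limma called Mcpt8 and Prss34 as lower (limma adjusted p = 0.0493 for each), and Epx (0.0791), Prg2 (0.0855) and Cpa3 (0.205) were not called. That fit called 0.266% of all genes as lower. Adding the sets leaves the log2 differences as they are and only narrows their errors, so the calls add no independent evidence.

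**Figure D3:**
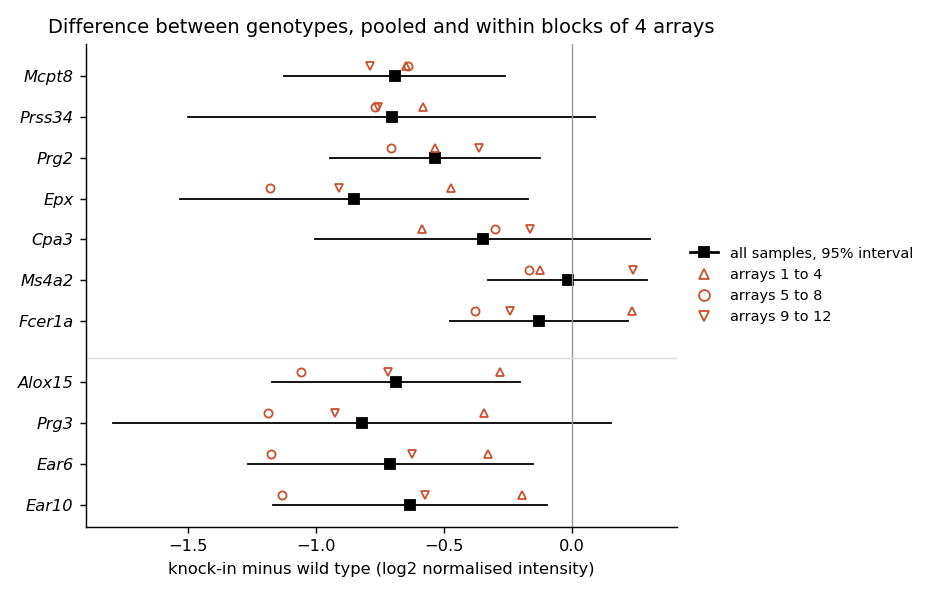
Difference between genotypes, knock-in minus wild type (log2 normalised intensity), for the 7 marker genes and for 4 further eosinophil genes; squares with lines give all samples with the 95% interval of the fit, and open symbols give the value within arrays 1 to 4, 5 to 8 and 9 to 12. The open symbols of Mcpt8 lie close together, those of the eosinophil genes are farthest from 0 in arrays 5 to 8 and nearest in arrays 1 to 4 except for Prg2, and those of Ms4a2 and Fcer1a lie on both sides of 0.

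Across the 6 samples, which share their genotypes and sets of arrays, the members formed groups by their levels. Prg2 and Epx followed each other with a Pearson r of 0.96, and Mcpt8 and Prss34 with 0.94. Between these pairs r was 0.70 to 0.79. Cpa3 was closer to the proteases (0.78 and 0.87) than to the granule genes of eosinophils (0.34 and 0.39). Ms4a2 and Fcer1a had r values of 0.14 to 0.54 with Mcpt8, Prss34, Prg2 and Epx and of 0.10 with each other. With Cpa3, r was 0.74 for Ms4a2 and 0.30 for Fcer1a. These are descriptions over 6 samples and carry no test. The profile averaged over the standardised members was highest in wild type arrays 7 and 8 (1.37) and lowest in knock-in arrays 3 and 4 (-0.82). The 5 genes whose levels were most like that profile were Rpl28, a protein of the large ribosomal subunit (r = 0.99), Polm, a DNA polymerase of end joining (0.99), Brk1, a subunit of the WAVE actin regulator (0.99), Nsa2, a factor of ribosome assembly (0.98), and Elp2, a subunit of the Elongator complex (0.98). Their differences between genotypes were -0.22, -0.30, -0.23, -0.25 and -0.25. The 50 genes outside the members with the highest r all had an r of at least 0.94.

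Further genes of these cell types were taken from a list of 44, of which 40 had a probe and 21 were tested. Of the 21, limma called 0 in either direction at an adjusted p under 0.05. At an unadjusted limma p under 0.05, 3 were lower, against 3.09% of all genes. All 3 knock-in samples lay below all 3 wild type samples for 2 of the 21 and for 6.47% of all genes. On average 16 were lower and 5 higher, where 58.4% of all genes were lower, and the median difference was -0.19. The lowest p-values belonged to 4 eosinophil genes. Alox15, a lipoxygenase of eosinophils and macrophages, was at 7.36, 8.14 and 7.61 in wild type samples and at 7.08, 7.08 and 6.90 in the knock-in. The groups did not overlap, and the difference was -0.69 ± 0.20 (limma adjusted p = 0.322). Ear6, a ribonuclease of eosinophil granules, was at 11.58, 12.44 and 12.20 in wild type samples and at 11.26, 11.27 and 11.58 in the knock-in. The genotypes just failed to overlap, with a difference of -0.71 ± 0.23 (limma adjusted p = 0.393). Its close relative Ear10 differed by -0.63 ± 0.22 (limma adjusted p = 0.448), and a probe may read both because the family's sequences are alike. Prg3, a homologue of major basic protein, differed by -0.82 ± 0.40 (limma adjusted p = 0.681). For Ear10 and for Prg3 the groups overlapped. Within arrays 1 to 4 these 4 genes differed by -0.35 to -0.20, within arrays 5 to 8 by -1.19 to -1.06 and within arrays 9 to 12 by -0.93 to -0.57. The sets had the same order for Epx and, by a small margin, for Prss34, but not for Mcpt8 or Prg2. Over all 21 genes the median was 0.08 within arrays 1 to 4, -0.14 within arrays 5 to 8 and -0.53 within arrays 9 to 12. Rnase2a, also on the list and named after its values were seen, differed by 0.05 ± 0.33 (limma adjusted p = 0.999). Within the sets it differed by 1.06, -0.57 and -0.33.

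Chymase and tryptase genes of mature mast cells were at background, whereas other genes that mast cells use were not. These were Mcpt1, Mcpt2, Mcpt4, Mcpt9, Cma1, Tpsab1 and Tpsb2, grouped here after their values were seen. They had 9 probes, of which 8 were above the background limit on 0 arrays and 1 on 1 array, with deposited intensities between -8.8 and 9.5. Surface receptors of mature eosinophils, also named after their values were seen, were dim as well. Siglecf and Il5ra were above the limit on 0 of 12 arrays, and Ccr3, the eotaxin receptor, on 3. Hdc, Kit and Gata2, named after their values were seen too, were above the limit on 12 arrays, as was Cpa3. Hdc, which makes histamine and is not limited to these cells, differed by -0.01 ± 0.36 (limma adjusted p = 0.999). Kit, the stem cell factor receptor of mast cells and progenitors, differed by -0.26 ± 0.24 and Gata2, a transcription factor of mast cells and early progenitors, by -0.38 ± 0.30 (limma adjusted p = 0.924 and 0.878).

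The gamma chain of the IgE receptor, Fcer1g, stood apart from all these genes and was singled out after its values were seen. Its only probe gave 5538.5 and 5522.9 intensity units on knock-in arrays 3 and 4, and between -7.3 and 4.9 on the other 10 arrays. It was thus above background in 1 knock-in sample and in 0 of the other 5 samples, and the filter left it out of the test. The authors' processed values showed the same, with 5221.6 and 5289.7 on these arrays and at most 4.3 elsewhere. In that sample Fcer1a, at 7.44, was the highest and Ms4a2, at 6.01, the lowest of the 3 knock-in samples. Of 45281 probes, 2 were above 100 units on both arrays of 1 sample and not above background on the other 10. The other one was that of Retnla, a secreted protein of alternatively activated macrophages and eosinophils, at 137.7 and 177.9 units on the same arrays 3 and 4 and at most 6.9 elsewhere. Whether the Fcer1g probe reads this gene's RNA alike in all samples was not tested, and neither was the cause.

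**Figure D4:**
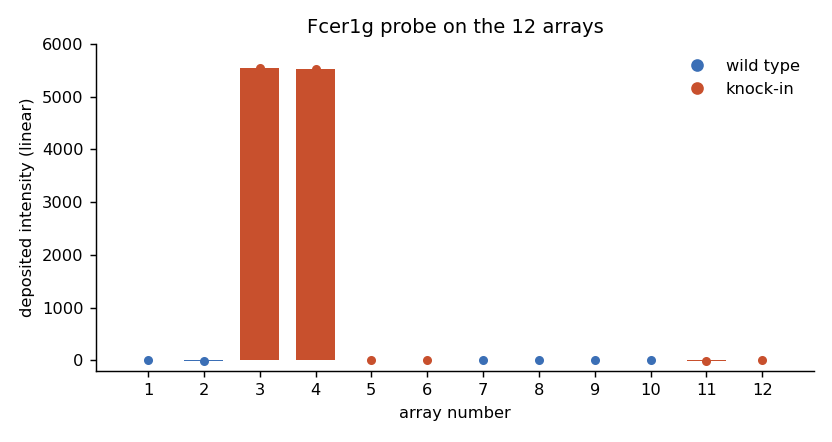
Deposited intensity (linear scale, not normalised) of the Fcer1g probe on each of the 12 arrays, coloured by genotype. Knock-in arrays 3 and 4 read 5538.5 and 5522.9 units, and the other 10 arrays lie between -7.3 and 4.9.

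Markers of some other marrow cells were lower together with the members. Of 12 B lineage markers tested, 11 were lower in knock-in samples, as were 58.4% of all genes, and the median difference was -0.98. At an adjusted limma p under 0.05, 0 were called. With the sets of 4 arrays as a term 3 were called, all lower, against 0.266% of all genes called as lower. At an unadjusted limma p under 0.05, 8 were lower, against 3.09% of all genes. Pax5 and Rag2 were above the background limit on 0 arrays. The summed level of the 12 B lineage markers, in normalised intensity units, was 4327 to 7151 in wild type samples and 2646 to 2845 in the knock-in, without overlap. For the 7 members the summed level was 24811 to 34087 in wild type samples and 17166 to 23861 in the knock-in, also without overlap. The brightest probes weigh most in such a sum, and that of the members was mainly Prg2. On the log2 scale Prg2 had a mean of 14.64 in wild type samples, against 10.89 for Prss34, the next brightest member. For the 21 other genes of mast cells, basophils and eosinophils the summed level was 11970 to 19923 and 11419 to 14345, and these ranges overlapped. Neutrophil markers went in both directions. Of 15 tested, 6 were higher and 9 lower, with a median of -0.02 and sums of 166455 to 226779 in wild type samples and 152033 to 221041 in the knock-in.

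Macrophage and monocyte markers were lower for 11 of 12 genes, where 58.4% of all genes were lower, and Cd5l was above the limit on 0 arrays. The median of these markers was -0.20, with sums of 14063 to 22411 in wild type samples and 13639 to 17411 in the knock-in. At an adjusted limma p 0 were called, and at an unadjusted p under 0.05 1 was higher and 0 lower. T and NK cell markers were lower for 5 of 5 with a median of -0.20, and 4 of the 10 with a probe, Cd4, Cd8a, Cd5 and Ncr1, were above the limit on 0 arrays. Megakaryocyte markers had a median of -0.02 over 8 genes and markers of stem and progenitor cells one of -0.06 over 8 genes. Erythroid genes were higher for 9 of 11, with a median of 0.23 and overlapping sums of 114712 to 126010 and 111023 to 119072. Their median changed sign between the sets of 4 arrays, at -0.23, 0.50 and 0.53. The part of these other cell types in the differences of the members was not tested.

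**Figure D5:**
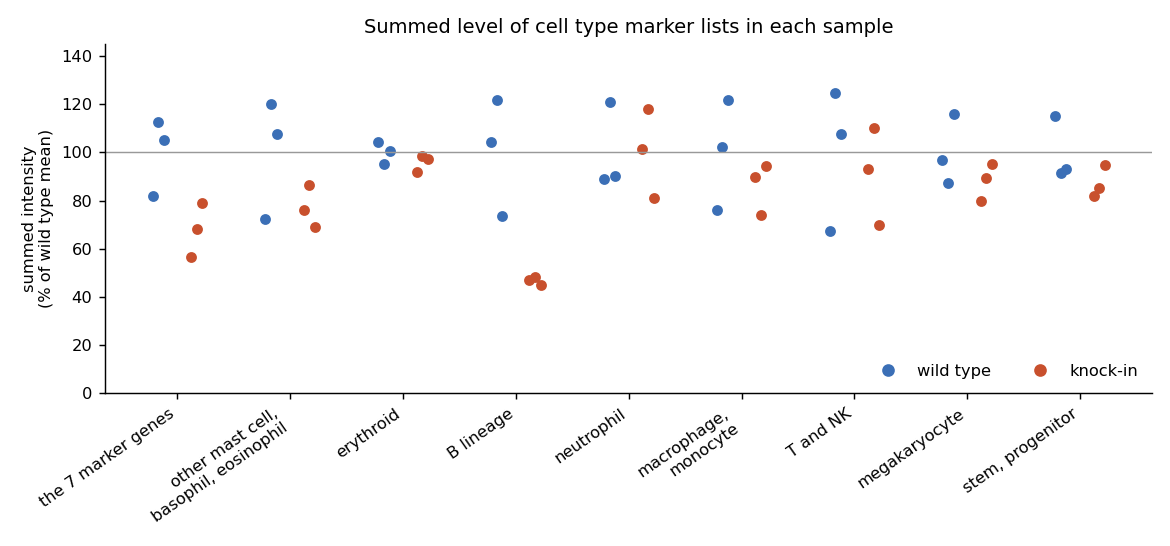
Summed normalised intensity of the tested genes of each marker list in each sample, as a percentage of the mean of the 3 wild type samples; each point is 1 sample. The knock-in samples lie below all wild type samples for the 7 marker genes, whose sum is mainly Prg2, and for the B lineage list. The genotypes overlap for the neutrophil, erythroid and other mast cell, basophil and eosinophil lists.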

How the data were processed

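Biotin-labelled cRNA was read on Illumina bead arrays, per the labels' protocols, and the submitters' processing notes name GenomeStudio without a version. The authors deposited intensity values of 45281 probes on 12 arrays that were not normalized between arrays. Of each array's values 33.1% to 37.0% were below 0, which shows that background was subtracted. The authors also deposited processed intensity values of these arrays, used only as an alternative, whose columns share 1 distribution by a method not given in the sources used here.

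Intensities were corrected with limma's normexp (offset 50), quantile-normalized and transformed to log2; the offset makes folds of dim genes too small. The background limit of an array was the 90th percentile of its negative values with the sign removed (6.6 to 7.7 units), which 15988 to 18227 probes exceeded. The 16894 probes that exceeded it on at least 6 of 12 arrays were kept, and the brightest kept probe stood for its gene. In the platform annotation 34885 probes had 1 symbol, 18 several and 10378 none. Adjacent arrays were averaged. The test was limma 3.58.1 (R 4.3.3) on 9388 genes, called at a Benjamini-Hochberg adjusted p under 0.05 over all of them. It was run on simulated data with changes larger than those of the members and without duplicates or sets of 4 arrays. That run does not show how well differences of the members' size are found. Promoter windows came from RefSeq (GRCm38.p6), which held 6 of the 7 members; no build is named for the array. Figures were drawn with matplotlib 3.10.9. Alternatives covered background correction, scaling, filters, probes, duplicates, blocks, weights and left-out samples or arrays.

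The members, lists, duplicates and tests were chosen with earlier results of these data known. Named are all members, the 4 other mast cell, basophil and eosinophil genes with the lowest p, the checks of the sort, the 5 genes most like the members' profile and names picked on their values and marked so.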

Additional observations from a re-analysis of the deposited data

How the results depend on the processing

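The median difference of the 7 members stayed negative under 13 other settings on all 6 samples, between -0.64 and -0.37, and moved by less than the SD between samples of a genotype. With each sample left out it lay between -0.66 and -0.41. Members called numbered 0 under 10 of these settings and with any sample or array left out. They numbered 3 with the 12 arrays as 12 samples (Mcpt8, Prg2 and Epx), which counts duplicates as replicates, 2 with adjacent arrays as a random block (Mcpt8 and Epx) and 2 with sets of 4 arrays as a term (Mcpt8 and Prss34). Genes called over the whole table numbered 8 as reported, 860 with 12 samples, 283 with the random block, 88 with the sets of 4, 44 with array weights, 16 with eBayes trend and robust, and 0 to 11 with a sample or array left out. The difference of Fcer1a was 0.048 with array weights, and that of Ms4a2 ran from -0.12 to 0.084 with samples or arrays left out; its direction is not settled. Ms4a2 was not tested where signal above the limit was required on all 12 arrays. Under 75th percentile scaling Mcpt8 differed by -0.52 ± 0.28 (log2, SE), Prss34 by -0.43 ± 0.39, Prg2 by -0.37 ± 0.24 and Epx by -0.61 ± 0.26. For each of these genes this was the smallest difference among the 13 settings, so their size depends on the scaling. Cpa3 (-0.24) and Fcer1a (-0.06) also differed less than as reported, and Ms4a2 (-0.08) differed more. The genotypes share no array number, and the sets of 4 arrays were the only pairing run. Low signal limits Ms4a2 most.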
